A study of Mus musculus with 24 samples.

Results

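The genes described are the 5 subunits of the muscle nicotinic acetylcholine receptor (Chrna1, Chrnb1, Chrnd, Chrne, and Chrng) and 5 organizers that gather the receptor at the nerve-muscle synapse (Agrn, Lrp4, Musk, Dok7, and Rapsn). They were chosen by gene name from the 56941 genes of the deposited tables, and all 10 were found. No measured value entered that rule, though the list was written with earlier results of these data known. Of these, 9 passed the filter on low counts, which left 13318 genes to test, and Chrne did not. Bulk RNA sequencing was performed on cultured muscle of C2C12, a line of mouse myoblasts that fuse and form multinucleated fibers. All cells, including those of the control, carried the light-gated channel ChR2 tagged with the red fluorescent protein tdTomato. Tissues were grown on a fibrin hydrogel in differentiation medium with horse serum and IGF-1, and RNA was taken after about 2 weeks. Light was given daily for 30 min at a frequency of 1, 4, or 10 Hz, and Control received none, with 6 libraries per condition and 24 in all. The study notes spontaneous twitching in every condition, so the control received no light but was not motionless. On day 10, electrical pulses at 1 Hz also drove all tissues, including the control, so that their contraction could be recorded. All tissues came from a single line.

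At the neuromuscular junction, acetylcholine released by the motor neuron opens a pentameric receptor built from alpha, beta, delta, and either gamma or epsilon subunits. Gamma (Chrng) belongs to the embryonic receptor of developing and denervated fibers, and epsilon (Chrne) replaces it at the adult endplate. Agrin, supplied chiefly by the nerve, binds LRP4 on the fiber and activates the kinase MuSK. With its adaptor Dok7, MuSK then drives rapsyn to cluster receptors. Electrical activity of an innervated fiber is known to hold down transcription of receptor genes outside the synapse, through E-boxes in their promoters that bind MyoD family factors, while synaptic nuclei use a separate element, the N-box, which binds ETS factors. No nerve was added to these cultures, and the 7 motor neuron markers examined (including Chat, Slc18a3, and Mnx1) each had a mean over all libraries under 0.5 TPM and were not tested.

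Library totals ranged from 4.09 to 15.2 M (mega) estimated counts, with a median of 7.48 M. A gene was called at a Benjamini-Hochberg adjusted p under 0.05 in edgeR's quasi-likelihood test with an absolute log2 fold change above 0.5. Values per library are given as CPM (counts relative to a TMM-scaled library total) where libraries are compared, and as TPM (transcript abundance corrected for length) where genes are compared. The 3 comparisons with Control share the same 6 control libraries and are not independent. Library makeup also differed between conditions. The summed TPM of 12 skeletal muscle fiber markers was 10591 to 13372 in Control, 16554 to 20949 at 1 Hz, 16591 to 23692 at 4 Hz, and 10897 to 17467 at 10 Hz. Small RNAs without a poly(A) tail made up 98.8 to 169 CPM of the unscaled library total in Control, 15.03 to 70.2 at 1 Hz, 18.3 to 51.1 at 4 Hz, and 38.4 to 272 at 10 Hz. The labels state that low-input samples were prepared by ribosomal RNA depletion in place of poly(A) selection, without naming them. In bulk RNA, more fibers in a tissue and more RNA of a gene per fiber cannot be told apart.

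Several of these genes were higher at 1 and 4 Hz than in Control, and 0 passed the call at 10 Hz, though with scaling to muscle fiber markers none was called higher, and 3 of the 4 called at 4 Hz (Chrnd, Chrng, and Dok7) turned below 0. At 1 Hz, 4 of the 9 tested genes were higher than in Control (Chrnd, Chrng, Musk, and Agrn) and 0 were lower, against 9.34% of all genes called higher and 8.99% called lower. At 4 Hz, 4 were higher (Chrnd, Chrng, Musk, and Dok7) and 0 lower, against 10.5% and 9.61% of all genes. At 10 Hz, 0 were higher and 0 lower by edgeR, against 1.24% and 0.623% of all genes, and also by DESeq2 and limma. With 9 genes, 0 calls at 10 Hz do not set the list apart from all genes. Musk and Lrp4 had unadjusted edgeR p-values of 0.00805 and 0.0125 at 10 Hz. Of all calls, 51.0% were higher at 1 Hz, 52.2% at 4 Hz, and 66.5% at 10 Hz, shares that were 37.1%, 35.7%, and 56.7% with scaling by total count and 41.5%, 24.5%, and 31.2% with limma on log2(TPM + 1). The median log2 fold change of the 9 genes was 0.49 at 1 Hz, 0.47 at 4 Hz, and 0.18 at 10 Hz, beside medians of -0.01 over all genes tested in each comparison. All 6 stimulated libraries lay above all 6 control libraries for 3 of the 9 genes at 1 Hz (7.22% of all genes), for 2 at 4 Hz (8.68%), and for 0 at 10 Hz (1.28%).

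**Figure D1:**
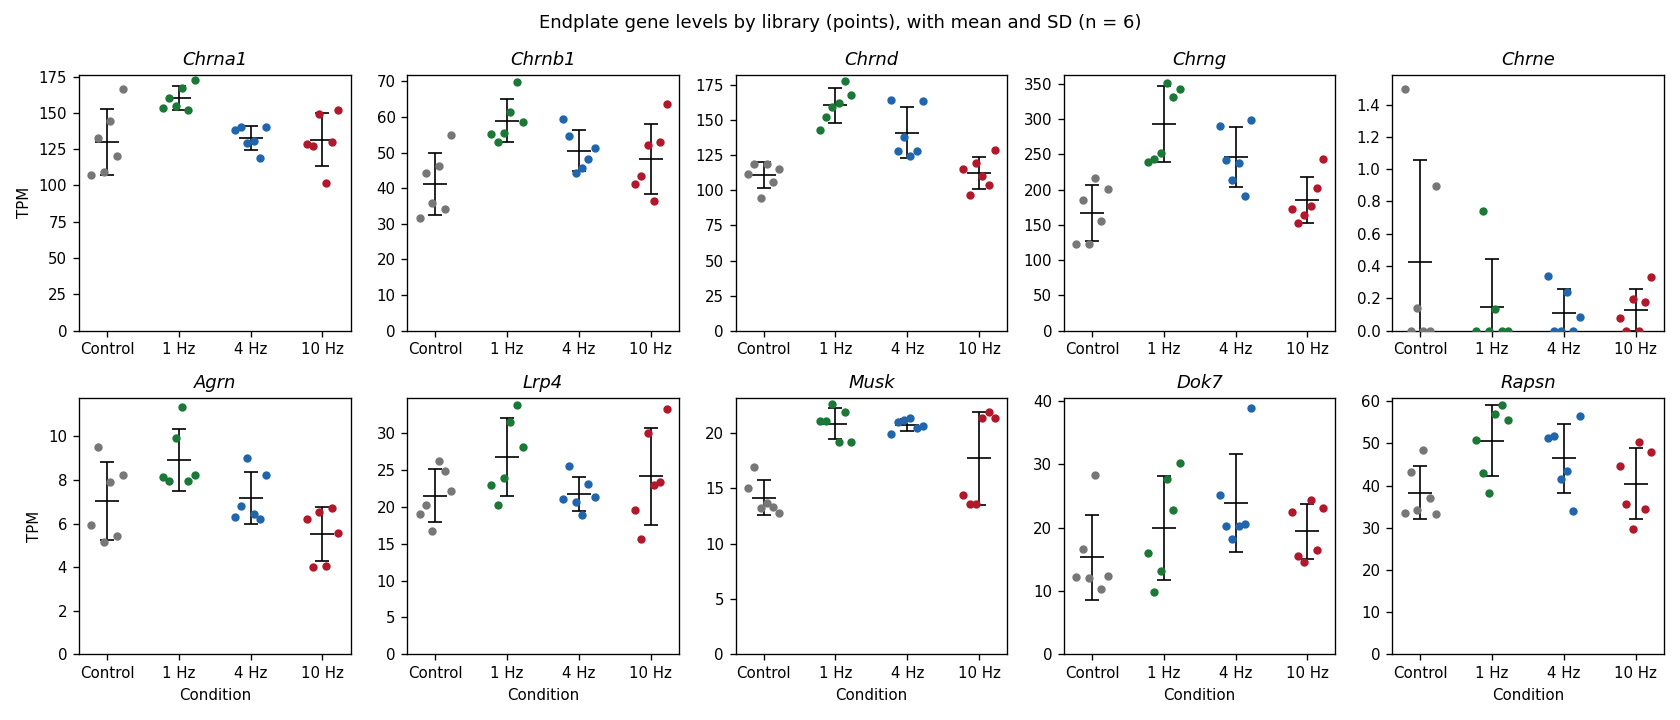
TPM of each of the 10 genes (vertical axes, starting at 0) by condition (horizontal axes), with a point for each library and the mean and SD of 6 libraries. Chrnd, Chrng, and Musk lie higher at 1 and 4 Hz than in Control, Musk at 10 Hz splits into 3 low and 3 high libraries, and Chrne stays at or under 1.499 TPM throughout.

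Per transcript length, the receptor subunits other than Chrne were the most abundant of the 10 genes. In Control, mean TPM was 167 ± 39.5 for Chrng, 130 ± 22.7 for Chrna1, and 111 ± 9.31 for Chrnd (SD, n = 6), and the ranges of these neighbors overlapped. Chrnb1 at 41.2 ± 8.83 TPM and Rapsn at 38.3 ± 6.27 TPM overlapped with each other and lay below the other 3 subunits. Lrp4 at 21.5 ± 3.61, Dok7 at 15.3 ± 6.72, and Musk at 14.2 ± 1.58 TPM followed, again with overlapping ranges. Agrn was lower still at 7.03 ± 1.78 TPM, with its highest control library (9.53) under the lowest of Dok7 (10.3). Chrne came last at 0.423 ± 0.633 TPM, a value that rested on 4 counts in 6 libraries.

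Chrnd and Chrng, which encode the delta and gamma subunits, are neighbors on mouse chromosome 1 (GRCm39), both on the plus strand and 4583 bases apart. Chrnd spans chr1:87118306-87127795 and Chrng chr1:87132379-87140416, each with 12 exons in the canonical transcript. The 250 bases before the canonical start of these genes, and of Chrne on chromosome 11, are shown because Chrnd and Chrng moved most alike over the 24 libraries of all 36 pairs of the tested genes, though not after removal of condition means, while Chrne, the adult counterpart of Chrng, was almost unread. Capitals mark E-boxes (CAGCTG, or CAGGTG and its reverse complement CACCTG) and the N-box (TTCCGG or its reverse complement CCGGAA). Both strands were searched, and no matches overlapped. The sequences were read from the GRCm39 genome in the direction of each gene, and lie before its canonical transcript. Overlap with exons of other transcripts was not tested.
Chrnd promoter, chr1:87118056-87118305, plus strand: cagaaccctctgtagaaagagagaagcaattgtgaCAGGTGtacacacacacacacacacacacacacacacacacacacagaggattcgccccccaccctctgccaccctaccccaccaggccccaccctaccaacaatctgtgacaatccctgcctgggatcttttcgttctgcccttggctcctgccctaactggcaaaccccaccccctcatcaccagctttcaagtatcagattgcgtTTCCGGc
Chrng promoter, chr1:87133242-87133491, plus strand: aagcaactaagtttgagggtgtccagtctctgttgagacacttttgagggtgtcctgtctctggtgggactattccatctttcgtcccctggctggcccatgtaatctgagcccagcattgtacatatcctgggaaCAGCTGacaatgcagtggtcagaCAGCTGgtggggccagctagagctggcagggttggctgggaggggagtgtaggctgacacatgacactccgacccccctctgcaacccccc
Chrne promoter, chr11:70510126-70510375, minus strand: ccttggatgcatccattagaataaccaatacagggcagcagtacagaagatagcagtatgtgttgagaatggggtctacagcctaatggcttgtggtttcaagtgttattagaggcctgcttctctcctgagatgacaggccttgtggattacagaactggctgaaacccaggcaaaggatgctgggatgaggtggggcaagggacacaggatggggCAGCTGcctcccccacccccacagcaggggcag

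Counting back from -1 at the base before the start, the Chrng window held CAGCTG at positions -114 and -91, and Chrne held the same E-box at -33. Chrnd held CAGGTG at -215 and an N-box, TTCCGG, at -7. The annotated Chrng gene begins further upstream than its canonical transcript, so that the Chrng window lies within the span of the gene. Among the other genes, Musk had CAGCTG at -37, Chrnb1 had CAGGTG at -19, Dok7 had it at -94, and Lrp4 had an N-box at -162. None of these motifs occurred in the windows of Chrna1, Rapsn, or Agrn. Only the 250 bases before the canonical start were searched, so motifs elsewhere or near another start would be missed for any of these genes. CAGCTG occurred in 11.9% of 21757 protein-coding promoters of the same length, CACCTG or CAGGTG in 17.7%, and the N-box in 12.4%, so single matches are frequent, and a match does not show that a factor binds.

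Chrng, the embryonic gamma subunit, had the largest fold change of the 9 genes at 1 Hz. Its CPM in Control ran from 213 to 336 (median 249), at 1 Hz from 370 to 563 (median 447), at 4 Hz from 319 to 507 (median 378), and at 10 Hz from 260 to 379 (median 289). Every 1 Hz library exceeded every control library, 5 of 6 did so at 4 Hz, and 1 did at 10 Hz. Against Control, its log2 fold change was 0.83 ± 0.13 at 1 Hz (SE, edgeR adjusted p = 5.95e-05) and 0.63 ± 0.13 at 4 Hz (SE, edgeR adjusted p = 0.000638). At 10 Hz it was 0.19 ± 0.13 (SE, edgeR adjusted p = 0.451). Chrng was lower at 10 Hz than at 1 Hz, where the log2 difference was -0.64 ± 0.13 (SE, edgeR adjusted p = 0.000623). Against 4 Hz it was -0.43 ± 0.13 (SE, edgeR adjusted p = 0.0200), short of the fold threshold. Without 10 Hz replicate 6, the highest 10 Hz library, that difference reached -0.52 and was called (edgeR adjusted p = 0.00643). The 1 Hz libraries of Chrng were split, at 370, 392, and 397 CPM in replicates 1, 2, and 3. Replicates 4, 5, and 6 had 549, 497, and 563 CPM. Chrnd, Dok7, Rapsn, and Lrp4 were divided in the same way at 1 Hz, while Chrna1, Chrnb1, Musk, and Agrn were not. The source of this split was not tested.

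Chrnd, the delta subunit present in both receptor forms, followed the same order of conditions. Its CPM was 147 to 196 (median 169) in Control, 226 to 298 (median 278) at 1 Hz, 211 to 302 (median 231) at 4 Hz, and 155 to 208 (median 182) at 10 Hz. The 1 Hz and 4 Hz libraries all lay above Control, and the 10 Hz libraries overlapped with it. In log2, Chrnd differed from Control by 0.67 ± 0.10 at 1 Hz (SE, edgeR adjusted p = 1.32e-05), 0.54 ± 0.09 at 4 Hz (SE, edgeR adjusted p = 8.37e-05), and 0.10 ± 0.10 at 10 Hz (SE, edgeR adjusted p = 0.589). The 4 Hz value lay close to the fold threshold: it was 0.496 without 4 Hz replicate 1 and 0.487 without 4 Hz replicate 6, and 0.34 on the log2(TPM + 1) scale, each with an adjusted p still under 0.05. At 10 Hz Chrnd was lower than at 1 Hz, where the log2 difference was -0.57 ± 0.09 (SE, edgeR adjusted p = 5.52e-05). All 6 of its 10 Hz libraries lay below all 6 at 4 Hz, where the difference was -0.44 ± 0.09 (SE, edgeR adjusted p = 0.00188).

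Chrna1 encodes the alpha subunit, which carries the main part of the acetylcholine binding site, and lies at chr2:73393557-73410835 on the minus strand. It was the subunit with the most reads, at 322 to 475 CPM (median 358) in Control and 452 to 549 (median 476) at 1 Hz. At 4 Hz it was 387 to 480 CPM (median 441), and at 10 Hz 329 to 463 (median 408). Each stimulated group overlapped with Control. Its log2 fold change of 0.37 ± 0.09 at 1 Hz passed the adjusted p but not the fold threshold (SE, edgeR adjusted p = 0.00314). At 4 Hz it was 0.22 ± 0.09 (SE, edgeR adjusted p = 0.0550), and mean TPM there was 133 ± 8.29, against 130 ± 22.7 in Control (SD, n = 6). At 10 Hz the log2 fold change was 0.12 ± 0.09 (SE, edgeR adjusted p = 0.5004). An antisense transcript shares 179 exonic bases with Chrna1, and another shares 93 with Musk, and the sources used here do not say whether strand was used in counting.

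Chrnb1, the beta subunit, lies at chr11:69674860-69686773 on the minus strand. It had 38.8 to 66.1 CPM (median 45.4) in Control, 61.7 to 71.3 (median 65.9) at 1 Hz, 56.2 to 70.4 (median 62.1) at 4 Hz, and 44.5 to 69.0 (median 54.1) at 10 Hz. Control replicate 6, at 66.1 CPM, was the only control library to reach the 1 and 4 Hz ranges, and the next stood at 52.7. For Chrnb1 the log2 fold change was 0.46 ± 0.10 at 1 Hz (SE, edgeR adjusted p = 0.00150) and 0.36 ± 0.10 at 4 Hz (SE, edgeR adjusted p = 0.00790), both under the fold threshold. Without Control replicate 6 the 1 Hz value was 0.56 and was called (edgeR adjusted p = 0.000113). It was 0.17 ± 0.10 at 10 Hz (SE, edgeR adjusted p = 0.389).

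Chrne, the adult epsilon subunit, lies at chr11:70505707-70510125 on the minus strand. It had 2, 0, 1, 0, 0, and 1 counts in the 6 control libraries, 0, 1, 0, 1, 0, and 0 at 1 Hz, 1, 0, 0, 3, 0, and 1 at 4 Hz, and 1, 0, 2, 0, 1, and 1 at 10 Hz. In 12 of 24 libraries it had 0 counts. Of the counts of Chrng and Chrne together, Chrne took 0.0430% in Control (4 of 9302, 95% Clopper-Pearson interval 0.0117% to 0.110%) and 0.00901% at 1 Hz (2 of 22198, 0.00109% to 0.0325%). Its share was 0.0233% at 4 Hz (5 of 21423, 0.00758% to 0.0545%) and 0.0337% at 10 Hz (5 of 14853, 0.0109% to 0.0785%). The intervals cover counting error only, they overlap, and no change of Chrne was detectable at this depth. Leaving out a library moved the share between 0.0245% and 0.0604% in Control, 0.00485% and 0.0122% at 1 Hz, 0.0116% and 0.0279% at 4 Hz, and 0.0244% and 0.0391% at 10 Hz. By TPM, Chrne was 0.0907% of both over all 24 libraries, and 0.252% in Control, where 2 counts in replicate 1 were given as 1.499 TPM. In a library with 0 Chrne counts, the limit that a count of 0 allows (3 counts) was 0.0515% to 0.294% of the pair. Nearly all counts of the pair were of the embryonic subunit in each of the 4 conditions, and the ratio of Chrng to Chrne had no finite value in the libraries at 0.

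Because Chrne gave no usable denominator, the balance of the other subunits was taken against Chrna1 as a ratio of TPM within each library, which does not depend on library scaling. These ratios were chosen after the values were seen, and 9 comparisons with Control were tested. Chrng to Chrna1 was 1.28 ± 0.145 in Control, 1.83 ± 0.296 at 1 Hz, 1.84 ± 0.229 at 4 Hz, and 1.42 ± 0.250 at 10 Hz (SD, n = 6). All 6 libraries at 1 Hz (lowest 1.52) and at 4 Hz (lowest 1.60) exceeded the highest control library (1.49), and 3 did at 10 Hz. In log2 the difference from Control was 0.51 at 1 Hz and 0.53 at 4 Hz (2-sided exact permutation p = 0.00216 for each, the smallest that 6 against 6 libraries can give, BH adjusted p = 0.00649). At 10 Hz it was 0.15 (exact permutation p = 0.262, BH adjusted p = 0.295).

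Chrnd to Chrna1 was 0.867 ± 0.113 in Control, 1.00 ± 0.0881 at 1 Hz, 1.06 ± 0.113 at 4 Hz, and 0.864 ± 0.119 at 10 Hz (SD, n = 6). The log2 difference was 0.30 at 4 Hz (BH adjusted p = 0.0227, exact permutation p = 0.0130). It was 0.22 at 1 Hz (exact permutation p = 0.0325, BH adjusted p = 0.0417), with the 1 Hz and Control ranges overlapping. That call was lost without any library but 1 Hz replicate 1 and Control replicate 1, with BH adjusted p-values up to 0.0835. Chrnb1 to Chrna1 was 0.315 ± 0.0209 in Control, 0.369 ± 0.0461 at 1 Hz, 0.380 ± 0.0343 at 4 Hz, and 0.365 ± 0.0392 at 10 Hz (SD, n = 6). Its log2 difference was 0.22 at 1 Hz (exact permutation p = 0.00433), 0.27 at 4 Hz (p = 0.00216), and 0.21 at 10 Hz (p = 0.0152), with BH adjusted p-values of 0.00974, 0.00649, and 0.0227. From estimated counts in place of TPM, the Chrnb1 differences were smaller, at 0.10, 0.15, and 0.05, and the 10 Hz value was no longer called (BH adjusted p = 0.511).

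**Figure D2:**
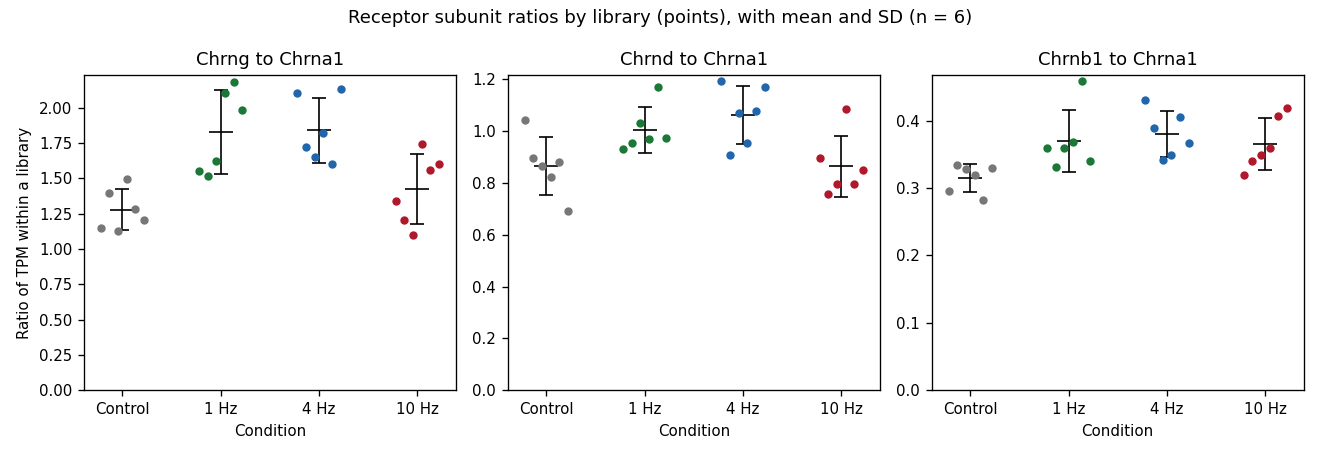
Ratio of the TPM of Chrng, Chrnd, and Chrnb1 to that of Chrna1 within a library (vertical axes, no unit, starting at 0) by condition, with a point for each library and the mean and SD of 6. All libraries at 1 and 4 Hz have a Chrng to Chrna1 ratio of at least 1.52, above the highest control library at 1.49.

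Among the organizers, Musk encodes the receptor tyrosine kinase at the center of the postsynaptic program. The gene lies at chr4:58285931-58377847 on the plus strand. Musk had 24.8 to 32.9 CPM (median 29.7) in Control, 41.2 to 48.3 (median 43.8) at 1 Hz, 46.6 to 52.2 (median 48.3) at 4 Hz, and 25.4 to 46.6 (median 37.99) at 10 Hz. Every library at 1 and 4 Hz lay above all of Control. The log2 fold change was 0.60 ± 0.12 at 1 Hz (SE, edgeR adjusted p = 0.000330) and 0.75 ± 0.12 at 4 Hz (SE, edgeR adjusted p = 2.01e-05). At 10 Hz it was 0.34 ± 0.12 (SE, edgeR adjusted p = 0.0921), from 3 libraries near Control and 3 near the other frequencies. The 10 Hz replicates 1, 2, and 3 had 33.2, 27.4, and 25.4 CPM of Musk, and replicates 4, 5, and 6 had 42.7, 44.6, and 46.6. In the same order, small RNAs without a poly(A) tail were at 178, 272, and 111 CPM in the former and at 81.3, 67.3, and 38.4 in the latter. The other tested genes were not divided in this way at 10 Hz. Chrna1, for example, had 407, 409, and 462 CPM in the former and 329, 398, and 463 in the latter. Between 10 and 4 Hz Musk differed by -0.41 ± 0.11 in log2 (SE, edgeR adjusted p = 0.00989), under the fold threshold.

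Agrn encodes agrin, of which muscle makes a form lacking the inserts that give the nerve form its clustering activity, and gene-level counts do not separate the forms. It lies at chr4:156249740-156282014 on the minus strand. Agrn had 13.5 to 24.9 CPM (median 20.05) in Control, 23.7 to 43.2 (median 31.3) at 1 Hz, 21.98 to 37.4 (median 25.8) at 4 Hz, and 15.4 to 21.2 (median 19.8) at 10 Hz. At 1 Hz 5 of 6 libraries exceeded all of Control, and at 10 Hz all 6 lay within its range. Against Control the log2 fold change of Agrn was 0.68 ± 0.16 at 1 Hz (SE, edgeR adjusted p = 0.00156), 0.46 ± 0.16 at 4 Hz (SE, edgeR adjusted p = 0.0216), and -0.06 ± 0.16 at 10 Hz (SE, edgeR adjusted p = 0.882). On the log2(TPM + 1) scale the 1 Hz value was 0.32 and was not called (limma adjusted p = 0.101). Of the 9 genes, Agrn differed most between 10 and 1 Hz, at -0.74 ± 0.15 in log2 (SE, edgeR adjusted p = 0.000560). It was also lower at 10 Hz than at 4 Hz, at -0.52 ± 0.15 (SE, edgeR adjusted p = 0.0160). The latter passed the fold threshold narrowly, being -0.48 without 4 Hz replicate 3, -0.42 without 4 Hz replicate 6, and -0.47 without 10 Hz replicate 2.

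Dok7 encodes the cytoplasmic adaptor that activates MuSK from within the fiber, and lies at chr5:35213886-35246018 on the plus strand. Its libraries were widely scattered, at 18.6 to 38.8 CPM (median 21.8) in Control, 18.0 to 39.1 (median 30.1) at 1 Hz, 28.8 to 52.3 (median 33.0) at 4 Hz, and 20.8 to 38.6 (median 31.0) at 10 Hz. Only 1 library at 4 Hz exceeded all of Control. Dok7 had a log2 fold change of 0.53 ± 0.19 at 4 Hz (SE, edgeR adjusted p = 0.0285), 0.27 ± 0.19 at 1 Hz (SE, edgeR adjusted p = 0.276), and 0.30 ± 0.19 at 10 Hz (SE, edgeR adjusted p = 0.393). The 4 Hz call was lost without Control replicate 1 (0.50), 3 (0.47), 5 (0.46), or 6 (0.49), and without 4 Hz replicate 6 it was 0.39 (edgeR adjusted p = 0.0943).

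Rapsn encodes rapsyn, the scaffold that anchors receptors to the cytoskeleton, and lies at chr2:90865892-90876082 on the plus strand. It had 30.5 to 45.7 CPM (median 35.1) in Control, 38.8 to 60.1 (median 53.6) at 1 Hz, 36.4 to 64.2 (median 50.1) at 4 Hz, and 30.9 to 52.0 (median 41.6) at 10 Hz. At both 1 and 4 Hz, 4 of 6 libraries exceeded all of Control. Rapsn had a log2 fold change of 0.49 ± 0.15 at 1 Hz (SE, edgeR adjusted p = 0.0101) and 0.47 ± 0.14 at 4 Hz (SE, edgeR adjusted p = 0.0117), just under the fold threshold. Leaving out 5 of the 12 libraries in turn at 1 Hz moved it above the threshold, up to 0.57 without Control replicate 4. At 4 Hz 4 of the 12 did, up to 0.55 without Control replicate 4. At 10 Hz it was 0.18 ± 0.15 (SE, edgeR adjusted p = 0.512).

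Lrp4, the agrin receptor on the fiber surface, lies at chr2:91287797-91344248 on the plus strand. Its mean was highest at 1 Hz, then at 10 Hz, then at 4 Hz. Its CPM was 81.0 to 112 (median 94.3) in Control, 104 to 136 (median 122) at 1 Hz, 97.0 to 121 (median 103) at 4 Hz, and 85.2 to 147 (median 119) at 10 Hz. All stimulated groups overlapped with Control. The log2 fold change was 0.34 ± 0.12 at 1 Hz (SE, edgeR adjusted p = 0.0265), 0.15 ± 0.12 at 4 Hz (SE, edgeR adjusted p = 0.310), and 0.31 ± 0.12 at 10 Hz (SE, edgeR adjusted p = 0.117). None passed the call, and the 10 Hz value differed from that at 1 Hz by -0.02 ± 0.12 (SE, edgeR adjusted p = 0.894).

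**Figure D3:**
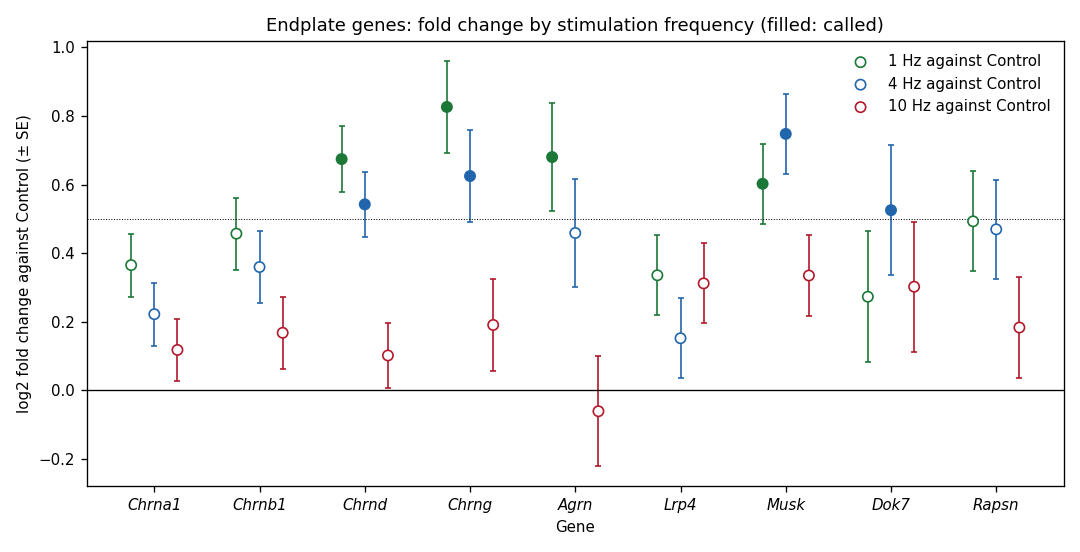
Log2 fold change against Control (vertical axis) of the 9 tested genes (horizontal axis) at 1, 4, and 10 Hz, with SE bars from edgeR and 6 libraries per condition. Filled points passed the call and the dotted line marks the fold threshold of 0.5. At 1 and 4 Hz all 9 values are above 0, and at 10 Hz only Agrn lies below it, while scaling to 12 muscle fiber markers put 5 of the 9 values at 1 Hz, 8 at 4 Hz, and 6 at 10 Hz below 0, and the small RNA covariate put Dok7 at 1 Hz and Lrp4 at 4 Hz below 0.

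Between stimulated conditions, 0 of the 9 genes were called between 4 and 1 Hz by edgeR, DESeq2, or limma. Over all genes, edgeR called 1.59% higher at 4 Hz and 1.4% lower, so 0 of 9 does not set the list apart. Of the 9 genes, 0 had an unadjusted edgeR p under 0.05 there. At 10 Hz against 1 Hz, 3 were lower (Chrnd, Chrng, and Agrn) and 0 higher, against 8.49% and 9.45% of all genes. At 10 Hz against 4 Hz, 1 was lower (Agrn) and 0 higher, against 5.64% and 5.32%. The median log2 fold change of the 9 genes was -0.13 at 4 Hz against 1 Hz, -0.29 at 10 Hz against 1 Hz, and -0.29 at 10 Hz against 4 Hz.

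Where the endplate genes were higher, at 1 and 4 Hz, the fiber markers were higher and the small RNAs lower than in Control. Of the 12 fiber markers, 8 were called higher at 1 Hz, 8 at 4 Hz, and 1 at 10 Hz, with 0 lower. Over all genes, 9.34%, 10.5%, and 1.24% were called higher. The median log2 fold changes of the markers were 0.65, 0.78, and 0.18. The 3 largest at 4 Hz were Tnni2 (1.23), Mylpf (1.10), and Tnnc2 (0.86), components of fast myofilaments. When libraries were scaled to these 12 markers in place of TMM, an alternative added after the data were seen, 0 of the 9 endplate genes was called higher at 1 or 4 Hz. Under it the median over all genes was -0.56 (1 Hz) and -0.66 (4 Hz), and that of the 9 genes was -0.07 and -0.20. Chrng kept 0.26 at 1 Hz (edgeR adjusted p = 0.0417) and was -0.05 at 4 Hz, Musk was 0.05 and 0.09, and Chrna1 was -0.19 and -0.43. With the small RNA share as a covariate, 0 of the 9 genes was called in any comparison, Chrng at 1 Hz was 0.47 (edgeR adjusted p = 0.377), and Musk at 4 Hz was 0.38 (edgeR adjusted p = 0.204). Across all genes, that covariate left 1 higher and 0 lower at 1 Hz, 154 higher and 96 lower at 4 Hz, and 122 higher and 81 lower at 10 Hz, and 4 of the 12 fiber markers were still called higher at 4 Hz. Since the small RNA ranges of the 1 and 4 Hz libraries do not overlap with Control, that share and stimulation cannot be told apart.

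**Figure D4:**
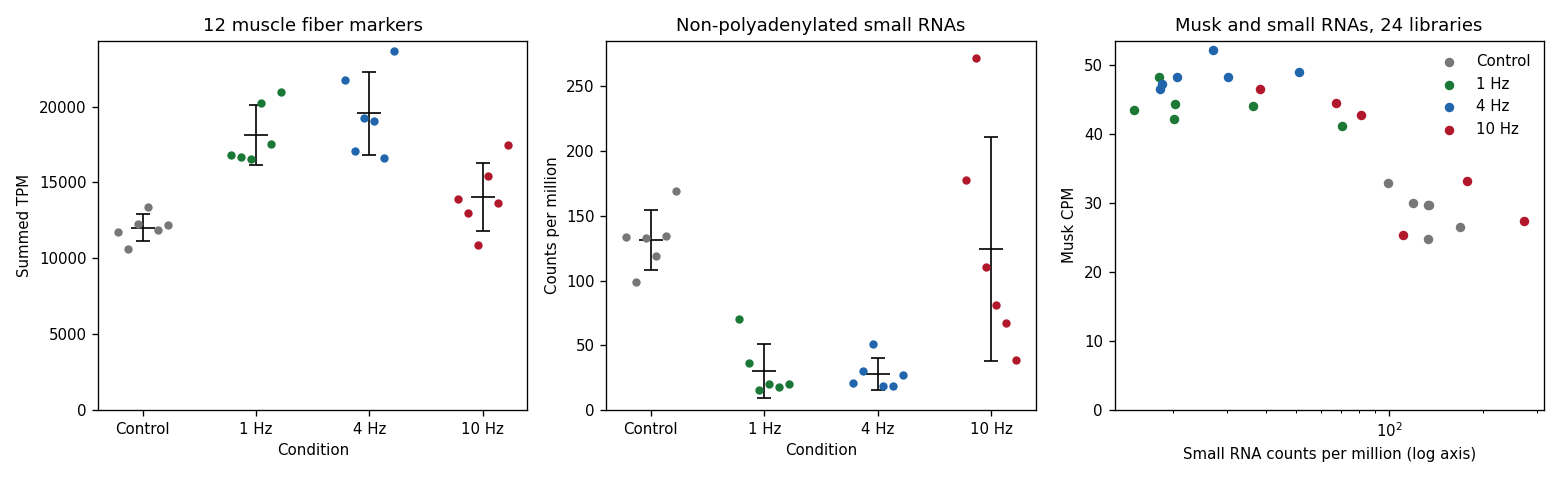
Left, summed TPM of 12 muscle fiber markers, and middle, CPM of small RNAs without a poly(A) tail, by condition, with a point for each library and the mean and SD of 6. Right, Musk CPM against the small RNA CPM (log axis) for all 24 libraries, in which the 10 Hz libraries with at most 81.3 CPM of small RNAs have at least 42.7 CPM of Musk and the other 3 at most 33.2. The other tested endplate genes were not divided in this way at 10 Hz.

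Over the 24 libraries, Chrnd and Chrng had the highest Pearson correlation of log2 CPM among the 36 pairs of tested genes (r = 0.94, and 0.82 after removal of condition means). Chrna1 and Chrnb1 followed with r = 0.92, and 0.87 within conditions. Musk and Chrna1 had the lowest correlation within conditions (r = -0.19, against 0.41 over all libraries). Of the 10150 other named genes with a mean of at least 5 CPM, those most like Chrng were Mymk (r = 0.98), which encodes the fusion protein myomaker, Itga7 (0.97), the fiber's laminin-binding integrin, Actn3 (0.96), a Z-disc protein of fast fibers, Fads3 (0.96), and Porcn (0.95). Those most like Chrna1 were Slco3a1 (r = 0.91), Cd82 (0.87), Rasa3 (0.86), Fah (0.86), and Vwa8 (0.85). The points share library scaling, depth, and condition, and these correlations are given as a description.

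The other genes of the endplate were examined as lists, beside shares over all genes of 9.34% higher and 8.99% lower at 1 Hz, 10.5% and 9.61% at 4 Hz, and 1.24% and 0.623% at 10 Hz. In the arm that links activity to receptor transcription, 5 of 11 tested genes were higher at 1 Hz, 6 at 4 Hz, and 1 at 10 Hz, and 0 were lower in each. Its median log2 fold change was 0.47 at 1 Hz, 0.57 at 4 Hz, and 0.13 at 10 Hz. Myod1, a master factor of the muscle lineage that binds E-boxes, rose by 1.17 at 1 Hz (edgeR adjusted p = 0.000456) and 1.51 at 4 Hz (2.15e-05). Camk2b, a calcium-dependent kinase, rose by 1.06 and 1.21, and Runx1, induced by denervation, by 0.75 and 0.71. Hdac9, a class II deacetylase known to repress the denervation response, rose by 0.74 and 1.00. Myog, encoding myogenin, which transmits denervation to receptor genes, was 0.47 at 1 Hz (edgeR adjusted p = 0.0144, not called), 0.85 at 4 Hz, and 0.62 at 10 Hz (edgeR adjusted p = 0.0142), where it was the only gene of the list called.

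Among channels whose isoforms change with innervation, 3 of 4 tested genes were higher at 1 Hz and 2 at 4 Hz, with 0 at 10 Hz and 0 lower. Cacna1s, the voltage sensor of excitation-contraction coupling, rose by a log2 fold change of 0.96 and 0.77, and Kcnn3, a potassium channel of denervated fibers, by 0.70 and 0.63. Scn4a, the sodium channel of innervated fibers, rose by 0.73 at 1 Hz and was 0.45 at 4 Hz, under the fold threshold. Channels of the innervated and of the denervated state were both among those that rose.

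Of 13 tested genes of the synaptic cleft and the dystrophin-associated scaffold, 7 were higher and 0 lower at 1 Hz, 4 higher and 1 lower at 4 Hz, and 0 either way at 10 Hz. Colq, the collagen tail that anchors acetylcholinesterase in the cleft, rose by 1.15 at 1 Hz and 1.17 at 4 Hz, and Ncam1, an adhesion molecule of immature and denervated fibers, by 0.87 and 0.82. Ache, the esterase itself, rose by 0.59 at 1 Hz (edgeR adjusted p = 0.0199) and was 0.35 at 4 Hz (edgeR adjusted p = 0.162). Lama4, a synaptic laminin chain, fell at 4 Hz, with a log2 fold change of -1.30. Utrn, the utrophin of the endplate, was 0.20 at 1 Hz and -0.05 at 4 Hz and was not called.

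Of 14 tested intracellular partners of MuSK, 2 were higher and 1 lower at 1 Hz, against 9.34% and 8.99% of all genes. At 4 Hz 0 were higher and 1 lower, against 10.5% and 9.61%. At 10 Hz 0 were called either way, against 1.24% and 0.623%. With 14 genes, such counts do not set the list apart from all genes. The medians of the list were 0.08, -0.16, and -0.13. Pdzrn3, a ubiquitin ligase for MuSK, rose by 0.66 at 1 Hz and Fntb, the beta subunit of farnesyltransferase, by 0.65, while Hsp90aa1, a stress-inducible chaperone, was lower at 1 Hz (-0.76) and 4 Hz (-0.82). Of 7 genes of the neuregulin arm, which acts on synaptic nuclei through ErbB receptors, 1 was higher at 1 Hz and 2 higher and 1 lower at 4 Hz, with 0 at 10 Hz. Nrg1, the neuregulin ligand, had the largest rise of any listed gene, 2.00 at 1 Hz and 1.61 at 4 Hz. Gabpb1, part of an ETS factor complex that binds the N-box, rose by 0.55 at 4 Hz, and Etv4, another ETS factor, fell at 4 Hz with a log2 fold change of -1.08. The receptors Erbb2 and Erbb3 were not called.

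These lists also moved with library scaling. When scaled to the fiber markers, the activity arm held 1 higher gene at 1 Hz (Myod1, 0.62) and 2 higher (Myod1, 0.85, and Camk2b, 0.54) and 2 lower at 4 Hz, and 0 of the 4 channels was called. The cleft and scaffold list held 1 higher (Colq, 0.59) and 3 lower at 1 Hz, and 0 higher and 4 lower at 4 Hz. In the neuregulin arm Nrg1 was still higher, at 1.42 and 0.94, and 3 of 7 genes were lower at 1 Hz and 4 at 4 Hz. The MuSK partners had 6 lower genes at 1 Hz and 11 at 4 Hz, beside the shift of all genes given for this scaling. Of the called genes named in these lists, Kcnn3 (-0.03) and Gabpb1 (-0.07) turned sign at 4 Hz. With the small RNA covariate 0 genes of the 5 lists were called at 1 or 4 Hz.

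**Figure D5:**
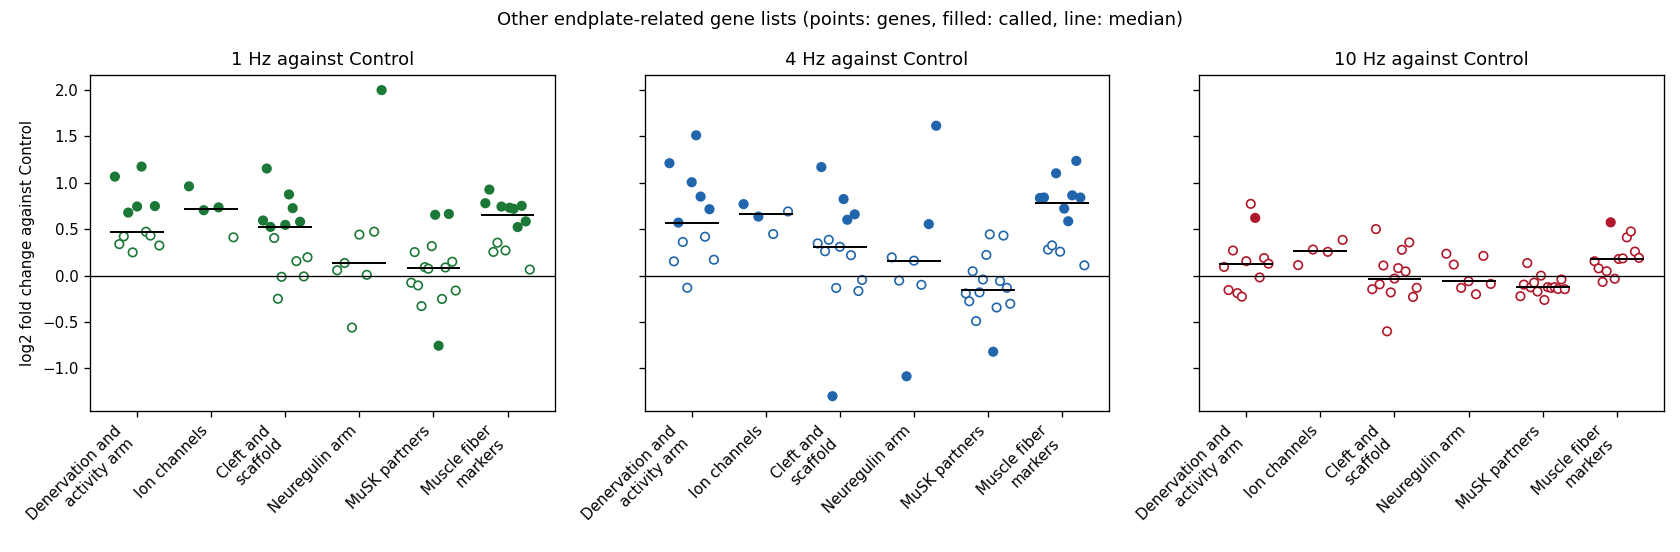
Log2 fold change against Control (vertical axis) at 1, 4, and 10 Hz for the tested genes of 5 endplate-related lists and of the 12 muscle fiber markers, with a point for each gene (filled where called) and a line at the median of the list. The medians of the activity arm, the channels, and the fiber markers lie at 0.47 or above at 1 and 4 Hz, and those of the MuSK partners within 0.16 of 0, all before scaling to the fiber markers, which put the activity arm at -0.07 and -0.09 and the channels at 0.16 and -0.02.

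Other nicotinic subunits were nearly absent, with 10 of 11 under a mean of 0.5 TPM over all libraries, and the 1 tested, Chrnb2, was not called. Most markers of other cell types were low. Of the 6 Schwann cell markers, 4 (Sox10, S100b, and Ngfr among them) had means over all 24 libraries under 0.5 TPM, as had 5 of the 6 endothelial and blood markers. The exceptions included Erbb3, also of the neuregulin arm, with group means of 10.6 to 13.2 TPM, and Cd68, a lysosomal protein abundant in macrophages, with group means of 105 to 135 TPM, and neither was called in a comparison with Control. Ngfr, at a mean of 0.448 TPM in Control and 0.847 at 10 Hz, was lower at 1 Hz (log2 fold change -2.25, edgeR adjusted p = 0.00310), and Csf1r, of the endothelial and blood list, was lower at 4 Hz (-1.33, edgeR adjusted p = 0.0195). Of 8 markers of cycling and unfused myoblasts, 1 was higher at 1 Hz (Pax7, 0.99) and 0 were called at 10 Hz. At 4 Hz, 3 were higher (Mki67, Pax7, and Top2a) and 1 lower (Myf5, -0.61), while limma on log2(TPM + 1) called 0 higher and 2 lower of 6. Over all genes, edgeR called 9.34% higher and 8.99% lower at 1 Hz, 10.5% and 9.61% at 4 Hz, and 1.24% and 0.623% at 10 Hz. With 8 genes, 1 higher at 1 Hz or 1 lower at 4 Hz does not set this list apart from all genes. Of 5 tested small RNAs without a poly(A) tail, 3 were lower at 1 Hz and 2 at 4 Hz, led by Rn7s2 (-3.78) and Rn7sk (-2.49) at 1 Hz, and 0 at 10 Hz.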

How the data were processed

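RNA from 24 muscle tissues, 6 biological replicates per condition, was sequenced by the authors in a 50-base paired-end configuration, after poly(A) selection or, for low-input samples that the labels do not name, ribosomal RNA depletion, and groups and replicate numbers come from the sample titles. Reads were run by the authors through nf-core/rnaseq on GRCm39 and its Ensembl annotation, and the submitters' processing notes name STAR and Salmon. The authors deposited Salmon's estimated counts per gene, which are not normalized (6.62% to 10.6% per library were not whole), and length-corrected TPM, which sum to the same total in every library.

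Estimated counts were rounded. edgeR's filterByExpr left 13318 genes with 99.8% of counts. All 24 libraries entered 1 quasi-likelihood fit by condition after TMM scaling (edgeR 4.0.16 and limma 3.58.1 in R 4.3.3), and 6 contrasts were tested, with adjusted p-values over all genes tested. The study used DESeq2, which was run here as an alternative (1.42.0). Because counts per library of 4.09 to 15.2 M set the counting error, shares are given with 95% Clopper-Pearson intervals. Single ratios were compared by 2-sided exact permutation tests (SciPy 1.17.1). Positions, exons, and promoter starts came from GENCODE M39, in which 98.91% of the genes of the tables were found by identifier.

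The members and all gene lists were written from general knowledge with earlier results of these data known. The text names all 10 members, up to 3 called genes each way with the largest absolute log2 fold change per list, any gene a list is known for (some listed genes are not reported here), and the 5 genes most correlated with Chrna1 and with Chrng. Chrne, at 0 to 3 counts per library, was too sparse for the last rule. The ratio of Chrng to Chrne could not be tested as planned, and ratios to Chrna1 were tested instead. On simulated libraries for 1 Hz against Control with 200 changed genes, edgeR recovered 83% over 13137 genes with 1.78% of calls false, DESeq2 86% with 2.27% false, and limma 84% over 13177 genes with 2.89% false. The planted changes were all larger in absolute log2 than that of any tested member at 1 Hz. These shares therefore do not give the recovery at the sizes reported for the members. The fits were repeated with total count scaling, DESeq2 size factors, the DESeq2 test, no filter, a minimum mean of 5 CPM, 3 limma fits of TPM (1 or 0.1 TPM added for genes with a mean of 1 TPM or more, and 1 TPM added to all genes), a fit of only the 12 libraries compared, a replicate block, the small RNA share as a covariate, no fold threshold, and 1 library left out at a time. Scaling to 12 fiber markers and all alternatives for subunit ratios were added after the data were seen. With a value added to TPM before the log, changes of low genes are understated.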

Additional observations from a re-analysis of the deposited data

Results flagged for a closer look

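Among 36 groups of 6 libraries (9 tested genes in 4 conditions), 1 held a library far from the rest, where chance gives about 1 in 20. At 10 Hz, the highest Chrng library, replicate 6, had 379 CPM, with a gap to the next library that was 0.663 of the range of the group (260 to 379 CPM), above Dixon's critical value for 6 libraries. The same library had the lowest small RNA level at 10 Hz (38.4 CPM) and the highest summed TPM of fiber markers at 10 Hz (17467). The part of these measures in its Chrng level was not tested.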

How the results depend on the processing

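Counts of called genes are given for edgeR unless stated. The 9 genes had 0 calls in directions other than those reported, 0 at 10 Hz against Control, and 0 at 4 Hz against 1 Hz under every alternative run but scaling to fiber markers, which called Lrp4 higher at 10 Hz than at 4 Hz, and the alternatives not named here left the counts within 1.5 times. On an adjusted p alone, 8 genes were higher at 1 Hz and 7 at 4 Hz than in Control. By that rule, 5 were lower at 10 Hz than at 1 Hz and 4 than at 4 Hz. Over all 13318 genes, the same rule gave 2414 higher at 1 Hz and 2558 at 4 Hz than in Control. It gave 2470 lower at 10 Hz than at 1 Hz and 1579 than at 4 Hz. With total count scaling and with each of the 3 forms of limma on TPM, 2 were higher at 4 Hz and 0 were lower at 10 Hz than at 4 Hz. Those settings moved the median of all genes at 4 Hz to -0.11 with total counts and to -0.16 and -0.18 with 1 and 0.1 TPM added, and the share of calls that were higher from 53.1% to 12.3% (4 Hz against 1 Hz, limma with 1 TPM added), from 52.7% to 41.5% (10 Hz against 1 Hz, same limma), and from 48.6% to 61.2% (10 Hz against 4 Hz, total counts). With the small RNA covariate 0 genes were called in each of these comparisons, and Dok7 at 1 Hz became -0.18 and Lrp4 at 4 Hz -0.15. Leaving out each library gave 2 to 6 genes higher at 4 Hz (2 without 4 Hz replicate 6) and 0 to 2 lower at 10 Hz than at 4 Hz (2 without 10 Hz replicate 6, and 0 without 4 Hz replicates 3 or 6 or 10 Hz replicate 2). Without Control replicate 4 or 6, Agrn at 10 Hz against Control turned from -0.06 to 0.0165 and 0.00733.

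Scaling to the fiber markers left 0 genes higher at 1 or 4 Hz and 0 lower at 10 Hz than at 1 or 4 Hz, and 1 gene higher at 10 Hz than at 4 Hz. The log2 fold changes it reversed were, at 1 Hz, Chrna1 -0.19, Chrnb1 -0.0965, Dok7 -0.30, Rapsn -0.0719, and Lrp4 -0.22. At 4 Hz they were Chrna1 -0.43, Chrnb1 -0.29, Chrnd -0.13, Chrng -0.0452, Dok7 -0.14, Rapsn -0.20, Lrp4 -0.49, and Agrn -0.22. At 10 Hz they were Chrna1 -0.0618, Chrnb1 -0.0213, Chrnd -0.0882, Chrng -0.00968, and Rapsn -0.0245. Between stimulated conditions it raised the genes above 0 from 1 to 6 of 9 for 10 Hz against 1 Hz and from 1 to 8 for 10 Hz against 4 Hz. Among those with an adjusted p under 0.05 before, the reversed were Chrna1 0.13 and Chrnb1 0.0751 for the former, and Chrnd 0.0416, Chrng 0.0355, and Musk 0.0252 for the latter. By construction this scaling removes any change that the 9 genes share with the markers.

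Samples with the same replicate number did not deviate together (36 correlations from -0.18 to 0.36, 10 of them over 0.1, and 5 of 24 libraries closest to their own number). The main fit did not pair samples by number. These correlations compared equal numbers only, so they could not show a split between low and high numbers, such as that of Chrng at 1 Hz. A replicate block gave 4 genes higher at 1 Hz, 4 at 4 Hz, 3 lower at 10 Hz than at 1 Hz, and 1 lower than at 4 Hz, all as without it. Paired by number, the exact sign-flip test of the ratios to Chrna1 cannot give a p under 0.0312 for 6 pairs, and no call was left after adjustment over 9, with the same differences of 0.51, 0.53, 0.22, 0.30, 0.22, 0.27, and 0.21 in log2. Chrnb1 to Chrna1 at 10 Hz was 0.0518 from counts and not called. Leaving out each library gave 0.45 to 0.56 and 0.48 to 0.57 for Chrng to Chrna1 at 1 and 4 Hz, 0.16 to 0.27 and 0.23 to 0.35 for Chrnd, and -0.0729 to 0.0507 for Chrnd at 10 Hz, whose sign turned without 10 Hz replicates 2 (0.0313), 3 (0.0163), or 5 (0.0169) or Control replicates 1 (0.0507), 2 (0.00721), or 5 (0.00203). By TPM the share of Chrne was 0.252% in Control and 0.0497% at 1 Hz. The planned test of the Chrng to Chrne ratio was not run because 12 libraries had 0 Chrne counts. With 1 TPM added to both genes its log2 rose by 1.06 at 1 Hz (exact permutation BH adjusted p = 0.0227), and with 0.1 TPM added the difference was 1.54 (exact permutation BH adjusted p = 0.286), so it turned on the added value. Depth limits the Chrne results, since a single count moved a library's share.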
